A study of Mus musculus with 20 samples.

Results

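Mouse livers, 20 samples from young mice on a fatty diet, were divided by how strongly they expressed interferon-induced genes. An interferon score was computed for each liver as the mean level of 3 genes, Ifit1, Ifit3 and Usp18. Within each of 2 slide series of 10 arrays, the 5 livers with the highest score were called high and the 5 with the lowest were called low, so that all 20 livers of the series fell into 10 high and 10 low livers. The donors were male mice of the inbred strain C57BL/6J. From weaning they received food in which fat supplied 60% of the energy, and their livers were sampled at the age of 6 weeks. The submitters labelled 10 livers as responders, which means susceptible to diet-induced obesity, and 10 as non-responders, which means resistant to it. All 20 shared strain, sex, age and diet, and none was labelled as infected, treated with interferon or fed another diet. The labels give neither the hour of sampling nor the feeding state. They name no separate animals, so a p-value here reflects only how much the samples vary, which may be technical.

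Interferons are secreted proteins that warn neighbouring cells of viral or other foreign nucleic acid. Type I and III interferons act through receptors that switch on the kinases JAK1 and TYK2, and transcription factors of the STAT and IRF families then bind the interferon-stimulated response element, a short DNA motif in front of many antiviral genes. Interferon gamma, which T and NK cells secrete, has a receptor of its own and induces guanylate-binding proteins, immunity-related GTPases and antigen presentation. Liver cells keep a low level of this response without infection, and the 3 genes of the score are among its usual readouts. Ifit1 binds foreign RNA, Ifit3 is a relative of Ifit1, and Usp18 removes ISG15 from proteins and restrains the type I receptor.

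Some promoters of interferon-induced genes hold that motif and others do not. The windows shown are examples picked because they hold it, from 2 score genes and from genes that differed. They come from the RefSeq promoter table of the build GRCm38.p6, are written 5′ to 3′ on the strand of the gene, and have the matches to the core of the motif, on either strand, in capitals. The core is GAAA, then 2 bases of any kind, then GAAA. Read from the opposite strand it is TTTC, 2 bases of any kind and TTTC, and overlapping matches are joined.
Ifit1, chr19:34640770-34640828, plus strand: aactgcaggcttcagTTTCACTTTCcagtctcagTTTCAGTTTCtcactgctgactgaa
Ifit3, chr19:34583358-34583431, plus strand: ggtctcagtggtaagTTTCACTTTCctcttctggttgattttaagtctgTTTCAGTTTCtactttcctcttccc
Isg15, chr4:156200860-156200911, minus strand: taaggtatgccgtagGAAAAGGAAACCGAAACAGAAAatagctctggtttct
Oas1a, chr5:120907526-120907560, minus strand: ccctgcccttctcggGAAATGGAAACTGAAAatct
Igtp, chr11:58199507-58199546, plus strand: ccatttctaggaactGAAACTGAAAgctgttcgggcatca
Rsad2, chr12:26456548-26456587, minus strand: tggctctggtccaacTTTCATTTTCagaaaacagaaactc
Stat2, chr10:128270261-128270300, plus strand: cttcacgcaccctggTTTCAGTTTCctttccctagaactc
Both Ifit1 and Ifit3 carry 2 matches, Isg15 carries 3 that overlap, and Oas1a carries 2 that overlap. Usp18 is not in the table that was used.

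The 3 score genes chose the groups, so their levels are a description without a test. Levels are log2 signals relative to the 75th percentile of the same array, and a level of 0 means a signal equal to that percentile. The score was 1.46 at its lowest, 1.79 at the median and 2.57 at its highest in the 10 high livers, and 0.74, 1.17 and 1.45 in the 10 low livers. The groups met closely at the dividing line. In the first series the last high liver scored 1.46 and the first low liver 1.32, a gap of 0.14 in a range of 1.09. In the second series these scores were 1.53 and 1.45, a gap of 0.07 in a range of 1.75. Ifit1 was 0.29, 0.60 and 1.56 (lowest, median and highest) in high livers and -0.68, -0.09 and 0.41 in low livers. Ifit3 was 1.92, 2.29 and 3.22 in high livers and 1.38, 1.71 and 1.99 in low livers. Usp18 was 2.08, 2.44 and 2.92 in high livers and 1.39, 1.76 and 2.13 in low livers. The score formed a continuous range in both series, and the division into high and low cut that range rather than separating distinct clusters.

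**Figure D1:**
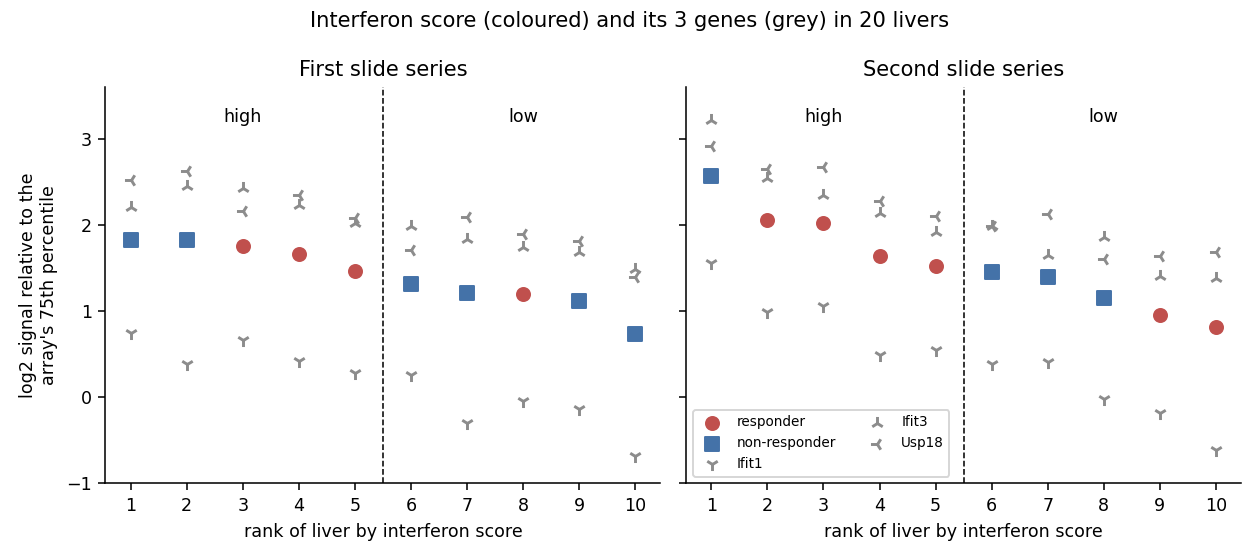
Interferon score of each liver (coloured) and the log2 levels of its 3 genes (grey), ordered by rank within each slide series; the dashed line divides the 5 high from the 5 low livers. The scores on either side of the line are 1.46 and 1.32 in the first series and 1.53 and 1.45 in the second.

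The arrays were alike in quality across the split. The share of spots well above background was 55.8% to 71.2% in high livers and 57.0% to 68.6% in low livers. Responder 7, a high liver, had the largest median spot variation at 10.4%. Hepatocyte markers averaged 7.04 to 7.35 in high livers (median 7.27) and 7.0 to 7.83 in low livers (median 7.44), with 17 of 18 tested members well above background on all 20 arrays. In the comparison of high and low livers below, 3 of those 18 passed (16.7%, against 3.61% of everything tested). Fga was higher in high livers, and Cps1 and Tat were lower. Pancreatic enzymes averaged -5.12 to 4.47 in high livers and -5.52 to 4.53 in low livers, so livers with much pancreatic RNA lay in both groups. In bulk tissue, fewer cells of a type and less RNA per cell cannot be told apart. The slide series coincided with the scan day, and 4 of the 13 slides held both high and low livers.

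The first question was which other genes differed between high and low livers. Of 17190 genes and unnamed probes tested, leaving out the 3 score genes, 621 passed an adjusted p of 0.05 (limma with slide series as a term, Benjamini-Hochberg), which is 3.61% of those tested. Higher in high livers were 363 (2.11%) and lower were 258 (1.5%). Of the 363 higher rows, 59 belonged to the 7 interferon lists and 304 lay outside them. Of 205 tested members of those lists, 61 passed (29.8%), of which 59 were higher and 2 were lower. Outside those lists 560 of 16985 passed (3.30%). The median difference was 0.27 over the 205 members, 0.32 in the first and 0.20 in the second series, against 0.02 over everything tested. Interferon-induced genes are known to rise and fall with the score genes, and they were read from the same arrays as the score. Their counts therefore describe how far the label of interferon response reached and are not independent support for it.

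The calls changed with the livers included and with the background correction. The count was 190 in the first series alone, with 14 interferon members, and 0 in the second series alone, where 1526 had an unadjusted p under 0.05. With normexp background correction it was 0, with 555 at an unadjusted p under 0.05. The median difference of the 59 higher interferon genes was 0.52 as reported, 0.37 with normexp and 0.52 in the second series alone, and all 59 stayed higher in both. Those 59 were chosen by their rise on these same arrays, so their direction there is no separate result. Over all 205 tested members the median was 0.13 with normexp and 0.20 in the second series alone, against 0.27 as reported. Leaving out a single liver moved the count by over 1.5 times for 11 livers. It was 225 without responder 6, 244 without non-responder 2, 280 without non-responder 3, 293 without non-responder 1, 297 without responder 1, 308 without responder 4, 313 without non-responder 4, 317 without responder 10, 320 without responder 3, 341 without responder 5 and 1192 without non-responder 8. The interferon count ranged from 37, without responder 6 or without non-responder 2, to 79 without non-responder 8. No gene differed in effect between the series at an adjusted p of 0.05 in limma (level by series interaction, 0% called), where 1403 had an unadjusted p under 0.05.

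The interferon genes themselves did not pass the threshold. Of 12 type I and III interferon genes on the array, 4 could be tested and none passed at 3.61% of all rows called, with a median difference of 0.02. Those 4, Ifna9, Ifna13, Ifnab and Ifnz, were well above background on all 20 arrays. Ifnb1, the interferon beta gene, was well above background on 1 of 20 arrays. Ifng, which encodes interferon gamma, was -5.08 at its lowest, -4.39 at the median and -3.51 at its highest in high livers, and -6.33, -4.93 and -4.20 in low livers. The groups overlapped, and Ifng was well above background in 9 high and 6 low livers. Its difference was 0.74 ± 0.28 (SE, n = 10 and 10, limma adjusted p = 0.144), with 1.43 in the first and 0.05 in the second series.

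Receptor genes did not pass either, with 0 of 5 tested members called and a median difference of 0.07. Ifnar1 and Ifnar2 encode the chains of the type I receptor. Their differences were 0.05 ± 0.06 (SE, limma adjusted p = 0.687) and 0.07 ± 0.06 (limma adjusted p = 0.559).

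Downstream of the receptor, 6 of 26 tested signalling genes rose (23.1%, against 2.11% of everything tested that rose) and none fell. The list's median difference was 0.11. Stat2 encodes a transcription factor that acts on the promoter motif with the product of Irf9. Stat2, whose promoter window is printed above, rose by 0.39 ± 0.09 (SE, limma adjusted p = 0.0252), and Irf9 rose by 0.32 ± 0.08 (SE, limma adjusted p = 0.031). Irf7, the factor that amplifies interferon alpha production, was 1.35, 1.89 and 2.66 in high livers and 0.78, 1.40 and 1.64 in low livers. The Irf7 groups overlapped in both series, with a rise of 0.61 ± 0.14 (SE, 1.53-fold, limma adjusted p = 0.0222). Socs1, a feedback inhibitor of JAK kinases, rose by 0.58, and the receptor kinase gene Tyk2 by 0.34. Jak1, named after its value was seen, had a difference of -0.07 (limma adjusted p = 0.467).

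Among sensors of foreign nucleic acid and their adaptors, 9 of 31 tested genes rose (29.0%) and none fell. Of everything tested 2.11% rose, and the list's median was 0.20. Ddx58, which encodes the RNA sensor RIG-I, was 0.53, 0.95 and 1.03 in high livers and -0.07, 0.12 and 0.79 in low livers. Its groups were apart in the first series and overlapped in the second, and the difference was 0.65 ± 0.10 (SE, 1.57-fold, limma adjusted p = 0.00567). Dhx58, the regulator of RIG-I known as LGP2, rose by 0.69 ± 0.10 (SE, limma adjusted p = 0.0029), and Ifih1, the RNA sensor MDA5, by 0.35 ± 0.09 (SE, limma adjusted p = 0.0331). Adar edits double-stranded RNA and Eif2ak2 encodes the RNA-activated kinase PKR. Both rose by 0.49, and for both every high liver of a series lay above every low liver of that series. Zbp1, a sensor of Z-form nucleic acid, rose by 0.90 ± 0.22 (SE, limma adjusted p = 0.0331) with overlap in both series. Ddx60 rose by 0.72 and the DNA exonuclease gene Trex1 by 0.29.

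The ISG15 system and the antiviral effectors had the largest called shares, 50% each against 3.61% of everything tested. Isg15, a ubiquitin-like protein that is attached to other proteins during the response, was 2.55, 2.74 and 3.28 in high livers and 1.24, 1.69 and 2.72 in low livers. All high livers of the first series lay above all its low livers, while in the second series non-responder 8, a low liver, lay within the high range. The rise was 1.07 ± 0.14 (SE, 2.1-fold, limma adjusted p = 0.00246), 1.2 in the first and 0.94 in the second series. Ube2l6, the conjugating enzyme of ISG15, rose by 0.45, and Herc6, its ligase in mice, by 0.48, so that 3 of 6 tested members of the system passed.

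Antiviral effectors act directly on viral RNA, proteins or entry. Of 38 tested, 18 rose and 1 fell, with a median of 0.49 that was close to equal in the series (0.52 and 0.48). The average level of the list was -0.05, 0.17 and 0.58 in high livers and -0.58, -0.30 and 0.06 in low livers. Mx1 encodes a GTPase that blocks influenza viruses only in its intact form, and the gene carries a deletion in many laboratory strains. The level of Mx1 RNA was -3.98, -3.68 and -3.07 in high livers and -5.93, -4.35 and -3.84 in low livers. It was well above background in 10 high and 8 low livers and rose by 0.92 ± 0.17 (SE, 1.89-fold, limma adjusted p = 0.011). Of the oligoadenylate synthetase family, named for enzymes that activate the RNA-degrading RNase L, several members rose: Oas1f by 0.82, Oas1a and Oas1c each by 0.81, Oas1e by 0.71 and the synthetase-like gene Oasl1 by 0.85. Oas1 genes are close copies of each other, so a probe may read more than its own gene. Oas2, with a difference of 0.35 ± 0.12 (SE, limma adjusted p = 0.104), and Oas3, with 0.53 (limma adjusted p = 0.0845), missed the threshold.

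Rtp4, an interferon-induced receptor transporter protein, was 3.8, 4.10 and 4.53 in high livers and 2.89, 3.34 and 3.77 in low livers. No low liver of either series reached the high livers of its series, and the rise was 0.79 ± 0.11 (SE, 1.72-fold, limma adjusted p = 0.0029). Such separation in both series was seen for 17 higher rows of all those tested (0.0989%) and 6 lower rows (0.0349%). Of the 17 higher rows, 8 belonged to the interferon lists: Adar, Eif2ak2, Oas1a, Oas1c, Oas1e, Rtp4, Samd9l and Xaf1. Cmpk2 and Rsad2 are neighbouring genes whose products make an antiviral nucleotide, and they rose by 0.87 and 0.65. Ifit2 and Ifit3b, relatives of the score genes, had differences of 0.37 (limma adjusted p = 0.0621) and 0.62 (limma adjusted p = 0.0592) and did not pass. Ifitm1, whose protein hinders viral entry, was the effector that fell, by 0.23 ± 0.06 (SE, limma adjusted p = 0.0407). The Trim12, Trim30 and Trim34 genes, an expanded family of close copies, gave 5 risers, of which Trim12c rose by 0.63, Trim30a by 0.56 and Trim34a by 0.52.

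**Figure D2:**
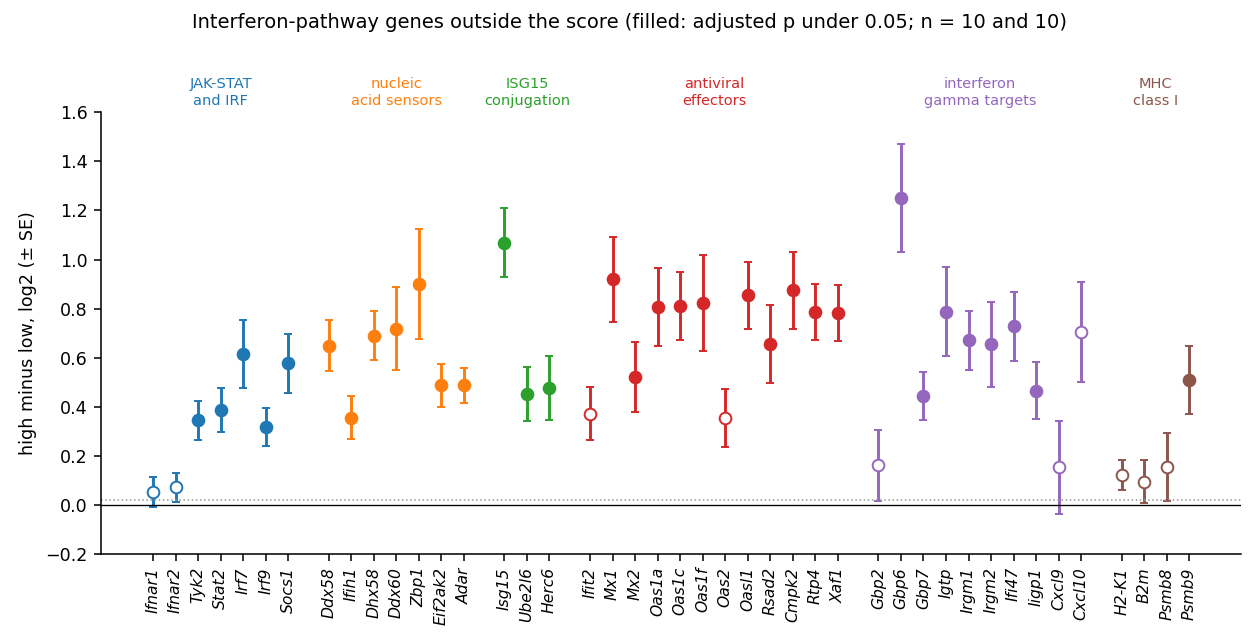
High minus low difference (log2, ± SE, n = 10 and 10) of interferon-pathway genes outside the score, grouped by role; filled points passed an adjusted p of 0.05 and the dotted line is the median of everything tested, 0.02. Isg15 (1.07) and Gbp6 (1.25) lie highest, while Ifnar1, Ifnar2, Gbp2, Cxcl9, H2-K1, B2m and Psmb8 lie below 0.2 with open points.

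Genes induced chiefly by interferon gamma also differed. Of 26 tested, 7 rose and 1 fell (30.8% called, against 3.61% of everything tested), with a median of 0.44. Gbp6, a guanylate-binding protein that attacks the vacuoles of intracellular microbes, was -0.03, 0.39 and 1.22 in high livers and -1.59, -0.79 and 0.16 in low livers. The groups were apart in the second series and overlapped in the first, and the rise was 1.25 ± 0.22 (SE, 2.38-fold, limma adjusted p = 0.00863). Gbp6 has close copies in the mouse genome. The immunity-related GTPases Igtp, Irgm1, Irgm2, Ifi47 and Iigp1 rose by 0.79, 0.67, 0.65, 0.73 and 0.46. Gbp2 had a difference of only 0.16 ± 0.14 (SE, limma adjusted p = 0.581). Vcam1, an adhesion molecule of endothelium, fell by 0.60 ± 0.16 (SE, limma adjusted p = 0.0432).

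The T cell chemokines did not pass. Cxcl10 was 0.97, 1.49 and 2.24 in high livers and -0.20, 0.74 and 1.83 in low livers, with overlap in both series and a difference of 0.71 ± 0.20 (SE, limma adjusted p = 0.0592). Cxcl9 had a difference of 0.15 ± 0.19 (SE, limma adjusted p = 0.715), 0.51 in the first and -0.20 in the second series.

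Antigen presentation by MHC class I gave 2 of 28 tested members called (7.14%), both higher, against 3.61% of everything tested, and a median of 0.12. Psmb9, a subunit of the immunoproteasome, rose by 0.51 ± 0.14 (SE, limma adjusted p = 0.0474), and the chaperone gene Calr by 0.34. The class I heavy chain gene H2-K1 and its partner B2m differed by 0.12 and 0.09, with limma adjusted p of 0.279 and 0.596. For class II, 0 of 11 tested members passed, and the median was 0.66 in the first and -0.20 in the second series.

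Another 14 of 53 tested type I interferon-induced genes rose (26.4%, against 2.11% of everything tested that rose) and none fell. Ifi44 was -0.35, 0.54 and 1.63 in high livers and -0.71, -0.10 and 0.26 in low livers, with a rise of 0.74 ± 0.16 (SE, limma adjusted p = 0.0176). Its groups were apart in the second series only. Rnf213, a giant ubiquitin ligase, rose by 0.57, the sugar-binding protein gene Lgals9 by 0.53 and Lgals3bp by 0.50. Apol9a, which has a near-identical neighbour in Apol9b, rose by 0.56.

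Promoters of the genes that rose held the response element more often than promoters at large, as a description. The core stood within 250 bases upstream of the start, on either strand, in 978 of 32851 windows (2.98%) and in 379 of the 11300 tested named genes with a window (3.35%). It stood in 19 of 49 interferon-list genes that rose (38.8%) and in 28 of 106 that did not pass (26.4%). Among genes outside the lists it stood in 13 of 225 that rose (5.78%), and among all genes that fell in 5 of 184 (2.72%). A match is no evidence that a factor binds there.

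Markers of the immune cells that express many of these genes were compared in the same way. Kupffer cell and macrophage markers gave 0 of 23 called, with 20 members higher and a median of 0.19, which was 0.42 in the first and -0.04 in the second series. Their average level was 1.12 to 2.57 in high livers and 1.39 to 1.92 in low livers. With that average as a term, 33 interferon members passed, of which 32 were higher, and all 59 higher genes kept their direction. Over all 205 tested members the median was then 0.22 against 0.27. Neutrophil markers had the largest median of the immune lists, 0.73, with 6 of 6 tested members higher and 0 called. Their average was -2.59 to -0.55 in high livers and -2.88 to -1.63 in low livers. S100a8 and S100a9, which encode the main calcium-binding proteins of neutrophils, had differences of 0.84 and 0.83 (limma adjusted p = 0.126 and 0.125). T and NK cell markers gave 1 of 19 called (5.26%, against 3.61% of everything tested). It was Klrb1c, an NK cell receptor, which fell by 0.54 and was well above background in 8 high and 10 low livers. Of that list 13 members were higher and 6 lower, with a median of 0.10, which was 0.33 in the first and -0.09 in the second series. B cell, dendritic cell and endothelial markers gave 0 called of 11, 14 and 20. The part of neutrophils and lymphocytes in the interferon differences was not tested.

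**Figure D3:**
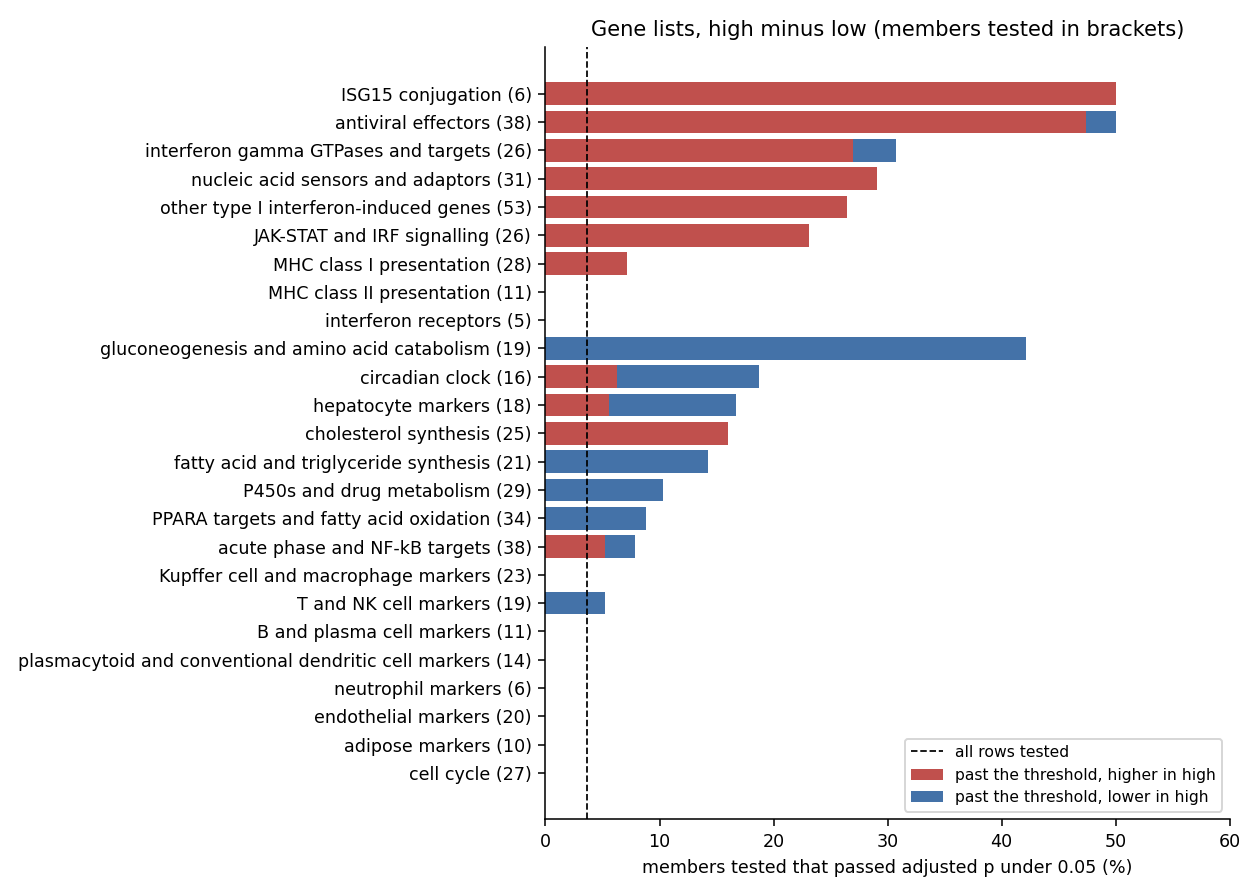
Share of the tested members of each gene list that passed an adjusted p of 0.05 in high minus low livers, higher (red) and lower (blue), with the number tested in brackets and the share over everything tested, 3.61%, as a dashed line. The ISG15 system and the antiviral effectors reach 50%, gluconeogenesis and amino acid catabolism 42.1% with lower members only, and the macrophage, neutrophil and adipose lists 0.

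When the score was used as a continuous measure rather than a split, fewer genes passed and most were interferon genes. Per unit of score, 84 passed (0.489%), 70 higher (0.407%) and 14 lower (0.0814%), of which 46 belonged to the interferon lists and 38 did not. They shared 67 genes with the split, 79.8% of the 84 and 10.8% of the 621. Of the 560 genes outside the interferon lists that differed between high and low livers, 30 also passed with the continuous score, and of the 61 interferon members 37 did. Antiviral effectors led with 21 of 38 members. Rtp4 rose by 0.95 per unit of score (limma adjusted p = 0.000211), Trim12a by 0.61 and Dhx58 by 0.82.

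Genes outside the interferon response also differed between high and low livers, in both directions. Enzymes that make glucose and break down amino acids stood lower in high livers. Of 19 tested, 8 fell (42.1%, against 1.5% of everything tested that fell) and none rose. The median was -0.36 (-0.24 and -0.45 in the series). Got1, the cytosolic aspartate transaminase, was 4.59, 5.07 and 5.77 in high livers and 5.26, 6.21 and 6.71 in low livers. The groups overlapped in the first series and were apart in the second, and Got1 fell by 1.05 ± 0.19 (SE, 2.07-fold, limma adjusted p = 0.00934). Sds, which deaminates serine, fell by 0.97, the urea cycle gene Asl by 0.76, Tat, which degrades tyrosine, by 0.80 and Cps1, the entry enzyme of the urea cycle, by 0.32. Gpt2 and the coactivator gene Ppargc1a, which the rule for naming did not pick, also fell. G6pc, the last step of glucose release, had a difference of -0.69 (limma adjusted p = 0.106).

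Glucocorticoid targets were lower in 12 of 13 tested members, with a median of -0.80, yet only Tat passed (7.69%, against 3.61% of everything tested). Their median was -1.15 within responders and -0.15 within non-responders. Fkbp5, a sensitive target of that hormone, had a difference of -1.2 (limma adjusted p = 0.0829).

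Clock genes differed as well. The circadian clock is a feedback loop of transcription factors that gives many liver genes a daily rhythm. Of 16 tested clock genes, 1 rose and 2 fell (18.8%, against 3.61% of everything tested). Nr1d1, the clock repressor REV-ERB alpha, was -0.78, 0.95 and 1.36 in high livers and -2.74, -1.06 and 1.53 in low livers. The groups overlapped in both series, and the rise was 1.54 ± 0.39 (SE, 2.91-fold, limma adjusted p = 0.0373), 2.29 in the first and 0.80 in the second series. The 3 kept probes of Nr1d1 differed by 1.54, 1.02 and 0.59, and the brightest, with 1.54, stood for the gene. Cry1, a repressor of the loop, was -5.54, -4.40 and -3.33 in high livers and -4.32, -2.99 and -2.20 in low livers. Cry1 was apart in the first series, overlapped in the second, and fell by 1.43 ± 0.29 (SE, limma adjusted p = 0.0141), with 7 of 10 high livers well above background. Per1, Per2 and Ciart were named after their values were seen, and had differences of -1.68, -0.84 and -2.0 without passing (limma adjusted p = 0.119, 0.228 and 0.327). Dbp and Arntl, which peak at opposite times of day, differed by 0.01 ± 0.75 and -0.06 ± 0.57 (SE). Both varied widely within the groups, so these differences are imprecise. Dbp was 2.05 to 6.23 in high livers and 0.90 to 6.63 in low livers, and Arntl was -2.53 to 1.04 and -2.22 to 1.86.

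The clock state could be set against the split by the first 2 principal components of the clock genes. The second component was -1.77 to 2.69 in high livers and -3.96 to -1.21 in low livers of the first series, and 0.90 to 2.16 against -3.17 to 1.65 in the second. With both components as terms, an alternative added after the data were seen, no gene passed in limma, and 1518 had an unadjusted p under 0.05. All 59 interferon genes that rose kept their direction, with a median of 0.36 against 0.52, and 32 had an unadjusted p under 0.05. Over all 205 tested members, not chosen by their rise, the median was 0.18 against 0.27. In that fit Nr1d1 (-0.095), Arrdc3 (-0.15), Acat2 (-0.0041), Lpin1 (0.046), Ppp1r3g (0.031) and Tat (0.063) changed sign. Nr1d1 is one of the genes the components were computed from, so the fit takes out much of its difference by construction. The second component had a higher median in high livers of both series, so terms for it also take up part of the split. The absence of calls in that fit therefore cannot separate the clock state from the interferon level. The part of the hour of sampling or of feeding in these differences was not tested.

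**Figure D4:**
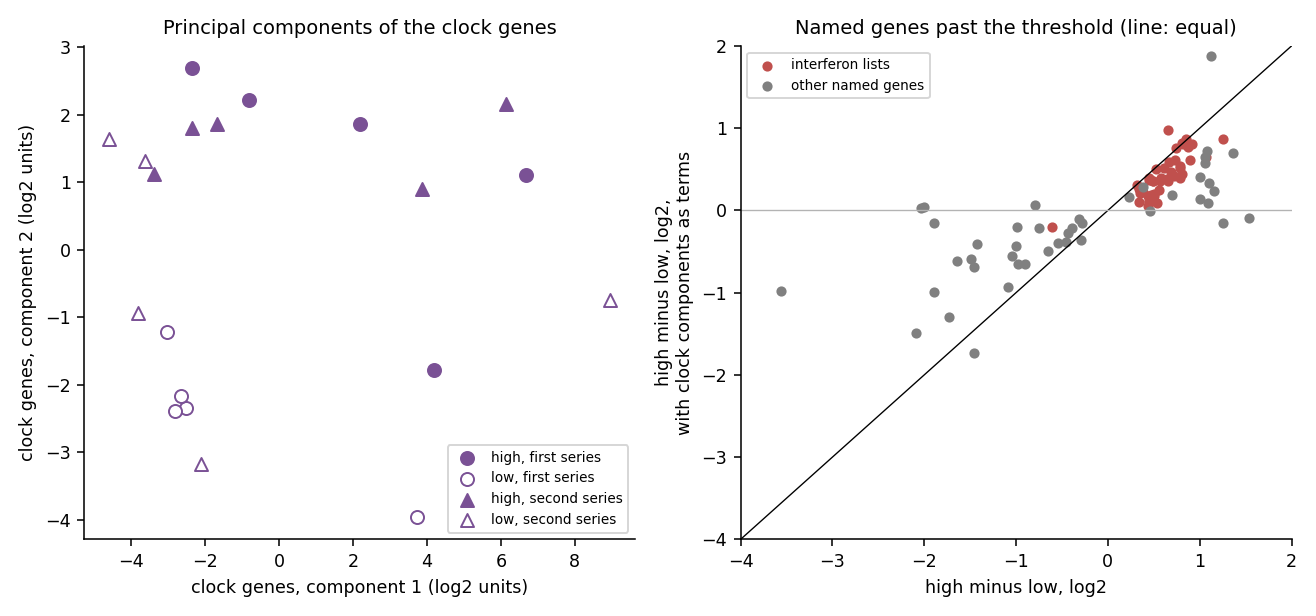
Left, the first 2 principal components of the clock genes in each liver (log2 units), with high livers filled, low livers open, and circles and triangles for the first and second slide series. Right, high minus low difference of the named genes that passed, with and without those components as terms. The higher interferon genes (red) stay above 0, while Nr1d1, Lpin1 and Ppp1r3g cross it. Nr1d1 is itself one of the clock genes behind the components.

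Among the lower genes was Fam107a, an actin-binding stress gene. It was -7.62, -6.25 and -3.07 in high livers and -5.18, -1.73 and 0.43 in low livers, with overlap in both series. It was well above background in 10 low livers but in only 4 high livers. The measured difference was -3.56 ± 0.70 (SE, limma adjusted p = 0.0122), and since most of the high livers gave signals that were not well above background, its size is uncertain. Lpin1, which makes diacylglycerol, fell by 2.0 ± 0.52 (SE, limma adjusted p = 0.0397), with overlap in both series.

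Others on the lower side were Ppp1r3g, which directs a phosphatase to glycogen (fell by 2.03), the lysophospholipid transporter gene Mfsd2a (1.89), Lingo4 (1.90), the monocarboxylate transporter relative Slc16a5 (1.73), the secreted factor Nrg4 (1.49) and Tnnc1 (1.46). Angptl7 and Acot3, a peroxisomal thioesterase gene with close copies, also fell. They were well above background in 1 and 2 high livers against 10 and 8 low livers, so no size is given. Acot4, a relative of Acot3, fell by 0.91. Cyp2b9, another gene with close copies, fell by 1.65.

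Among the genes outside the interferon lists that rose, beside Nr1d1, were Phlda2, an imprinted growth-restraining gene (1.36 ± 0.26 SE, limma adjusted p = 0.011), and the arrestin-like gene Arrdc3 (1.26). Klhdc7a (1.15), Apol10b (1.13), the water channel gene Aqp8 (1.1) and Lgr5 (1.09), a receptor of the Wnt pathway that marks hepatocytes near the central vein, rose too. So did Gas7 (1.08), Grm8 (1.06) and the calcium sensor gene Ncald (1.00). Several were dim: Grm8 was well above background in 3 high and 3 low livers, Gas7 in 5 and 3, Apol10b in 7 and 4, and Phlda2 in 9 and 5.

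**Figure D5:**
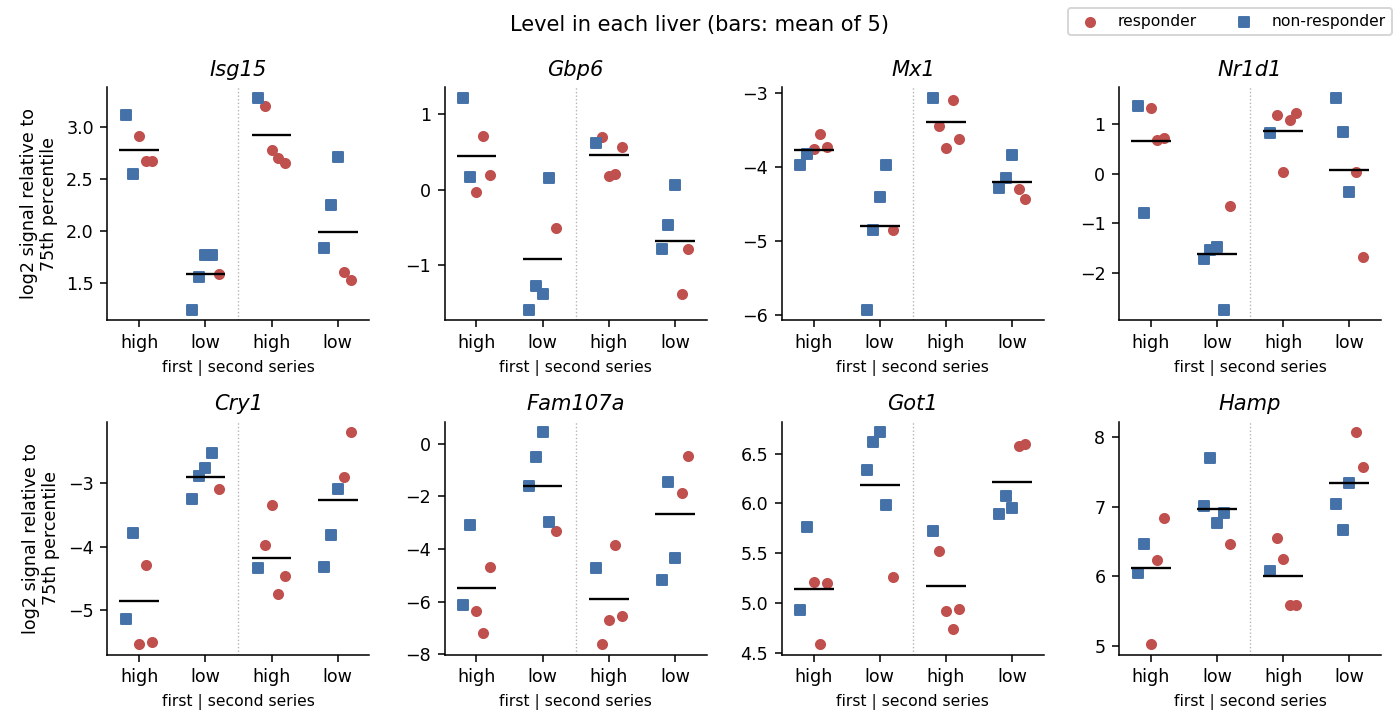
Level of 8 genes in each liver (log2 signal relative to the array's 75th percentile), split by slide series and level, with responders as red circles, non-responders as blue squares and the mean of 5 livers as a bar. Isg15, Gbp6 and Mx1 lie higher and Cry1, Fam107a, Got1 and Hamp lower in high livers of both series, on average, with overlap in both series for Nr1d1 and Fam107a.

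Lipid pathways gave smaller groups of calls. Of 25 tested cholesterol synthesis genes, 4 rose and none fell (16%, against 2.11% of everything tested that rose), among them Mvd by 1.06, Hmgcs1, which makes the precursor of mevalonate, by 1.00 and Acat2 by 0.45. The list's median was 0.19. Of 21 tested genes of fatty acid and triglyceride synthesis, 3 fell (14.3%, against 1.5% of everything tested that fell) and none rose: Lpin1, and the desaturases Fads1 and Fads2, by 0.46 and 0.43. Of 34 tested PPARA targets and oxidation genes, 3 fell (Acot3, Acot4 and Acadl) and none rose. This was 8.82%, against 1.5% of everything tested that fell, with 30 lower and a median of -0.13.

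Of 29 tested P450 and drug metabolism genes, 3 fell (10.3%, against 1.5% of everything tested that fell) and none rose. Por, which passes electrons to all microsomal P450 enzymes, was 6.00, 6.59 and 7.04 in high livers and 6.78, 7.56 and 8.06 in low livers. The Por groups were apart in the second series and overlapped in the first, and it fell by 1.00 ± 0.17 (SE, 2-fold, limma adjusted p = 0.00657). Cyp3a13 fell by 0.40. Nampt, which makes a precursor of NAD, fell by 0.99 and Afmid, of the kynurenine pathway, by 0.65.

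Acute phase genes and targets of NF-kB belong to the inflammatory response that interleukin 6 and related signals drive. Of 38 tested, 2 rose and 1 fell (7.89%, against 3.61% of everything tested), with a median of 0.19. Hamp, which encodes the iron hormone hepcidin, was 5.03, 6.15 and 6.84 in high livers and 6.46, 7.03 and 8.07 in low livers. It fell by 1.09 ± 0.23 (SE, 2.12-fold, limma adjusted p = 0.0156), and the groups were apart in the second series. The fibrinogen chains Fga and Fgg rose by 0.38 and 0.23, with Fgg at -0.022 under normexp.

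Adipose markers were lower in 10 of 10 tested members without a call, and their median was -1.08. That median was 0.07 within responders and -1.42 within non-responders. Their average was -3.51 to -0.25 in high livers and -3.10 to 0.91 in low livers. Adipoq and Cfd, the defining secreted proteins of fat cells, had differences of -1.2 and -1.48 (limma adjusted p = 0.264 and 0.19). With that average as a term, 325 genes passed in limma, 48 of them interferon members, all higher.

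The split was then crossed with the responder label, which the score did not use. High livers comprised 7 responders and 3 non-responders, and low livers 3 responders and 7 non-responders (Fisher's exact test, two-sided, p = 0.179). The score itself was 1.51 ± 0.42 (SD, n = 10) in responders and 1.46 ± 0.51 (SD, n = 10) in non-responders. The labels overlapped throughout: the highest score, 2.57, and the lowest, 0.74, both belonged to non-responders. The mean difference within series was 0.02, responder minus non-responder (exact permutation within series, 44100 arrangements, two-sided p = 0.921). It was 0.18 in the first series (exact permutation p = 0.471) and -0.14 in the second (exact permutation p = 0.705).

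No gene's high-minus-low difference depended on the label at an adjusted p of 0.05 (limma interaction, 0% called), with 782 at an unadjusted p under 0.05 and a smallest adjusted p of 0.53. Responders and non-responders compared with level as a term likewise gave 0 calls in limma (0%), with 1318 at an unadjusted p under 0.05 and a smallest adjusted p of 0.489. Isg15 was higher in high livers by 1.26 within responders and 1.14 within non-responders, and Gbp6 by 1.27 and 1.44. For Got1 these differences were -1.12 and -0.75, and for Lpin1 -3.00 and -0.86. Over the interferon lists the median was 0.27 within responders and 0.38 within non-responders. With the label as a term, 355 genes passed in limma, of which 64 were interferon members, all higher.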

How the data were processed

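One-colour Agilent arrays measured the RNA of each liver. The file headers show that the deposited intensities are linear, had their background subtracted and were corrected for trends across the slide. Those headers name Feature Extraction 10.5.1.1, while the processing notes of the submitters name 9.1. The authors' deposited table of intensity, whose making is not stated in any source used, served as an alternative. The processed signal of each spot was put on the log2 scale, and the 75th percentile of its array was subtracted. Control spots and spots flagged as outliers were dropped, which left 133 tested rows with a missing value that limma skipped. Replicate spots were averaged. A probe was kept (26156 were) if it lay well above background on 5 or more arrays carrying one label, and the brightest probe stood for its gene. The RefSeq gene table of GRCm38.p6 named 27479 probes through an accession, 5478 through a current and 679 through an older symbol, 689 kept the symbol of the array, and 6849 stayed unnamed.

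The comparison of high and low livers used limma 3.58.1 under R 4.3.3 (lmFit and eBayes, slide series as a term, Benjamini-Hochberg adjustment over all rows without the 3 score genes, threshold 0.05). The fit was tested on simulated data. The number of arrays limits the precision. The score, the gene lists and the alternatives were chosen with earlier results of these data known. Named were, in each direction, the 12 largest differences of one sign in both series outside the interferon lists, up to 8 passing members of each interferon list with a fixed set of defining members, and up to 4 of every other list. Members beyond that rule (Oas1e, Samd9l, Trex1, Oas3, Ifitm1, Ifit3b, Trim12a, Trim12c, Trim30a, Trim34a, Apol9b, Jak1, Gpt2, Ppargc1a, G6pc, Fkbp5, Per1, Per2, Ciart, Dbp, Arntl, S100a8, S100a9, Adipoq and Cfd) were named after their values were seen. Some genes that the rule picks are not reported here. Alternatives covered background correction, normalization, filters, probes, terms for series, slide, label and cell markers, and leaving out each liver.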

Additional observations from a re-analysis of the deposited data

Results flagged for a closer look

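In groups of 10 livers, a liver was picked out when its gap to the nearest other liver exceeded 0.47 of the group's range. This happened in 23 of 274 groups tested, and chance gives about 1 in 20. Values are log2 levels relative to the array's 75th percentile, as a mean over members for a list.

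Non-responder 4, a high liver, stood above the other high livers for interferon gamma targets (1.97), MHC class I presentation (4.39), MHC class II presentation (2.69), Igtp (5.36) and Gbp2 (1.16). Without it, 45 interferon members passed, 44 of them higher. Non-responder 8, a low liver, stood above the other low livers for Phlda2 (-3.18), Dhx58 (0.57), Ube2l6 (2.18) and Igtp (4.57). Without it, 79 interferon members passed, 77 of them higher. Non-responder 6, a high liver, stood apart for Arrdc3 (-0.16), Klhdc7a (-0.039) and Lgr5 (-2.06), where it was lowest, and for Ppp1r3g (-1.12) and the PPARA targets (4.72), where it was highest. Without it, 65 interferon members passed, 64 of them higher.

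Single values were also set apart. Among low livers these were non-responder 10 for MHC class II presentation (1.31), non-responder 1 for Angptl7 (-1.29) and Mx1 (-5.93), non-responder 5 for Ifi209 (-2.59) and responder 6 for Fads1 (4.66). Among high livers these were responder 9 for complement (4.64), responder 7 for Dhx58 (0.24) and B2m (7.58), and non-responder 9 for Ngfr (-0.48).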

How the results depend on the processing

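Against 621 genes past the threshold, 61 of them interferon members, the counts were 621 and 62 with quantile normalization, 622 and 63 with the authors' deposited values, 697 and 69 for probes detected on all arrays, 641 and 64 with all probes averaged, 787 and 67 with slide as a random block and 732 and 68 with a trended robust variance. They were 0 and 0 with normexp, 199 and 33 without a filter on dim probes, 376 and 50 with plain background subtraction (added after the data were seen), 216 and 36 without the series term, 190 and 14 in the first series alone, 0 and 0 in the second, 2119 and 97 with array weights, 355 and 64 with the label as a term, 325 and 48 with adipose markers, 226 and 33 with macrophage markers, 0 and 0 with 2 clock components and 84 and 46 with the continuous score. Without 1 liver they ranged from 225 to 1192 and from 37 to 79. The cause of these shifts was not tested.

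The correlations do not settle whether the numbers in the sample titles pair the livers. Same-numbered livers correlated above 0.1 in 6 of 10 pairs (-0.23 to 0.59), and 3 of 10 correlated best with their own number. With the replicate number as a block, 0 genes and 0 interferon members passed (1807 at an unadjusted p under 0.05), and all 59 higher interferon genes kept their direction, with a median of 0.37. Over all 205 tested members the median was then 0.13 against 0.27.

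Of 88 named genes that passed, 81 kept their sign under all alternatives. The 7 others were Nr1d1 (-0.095), Arrdc3 (-0.15), Ppp1r3g (0.031), Lpin1 (0.046), Tat (0.063) and Acat2 (-0.0041) with 2 clock components, and Fgg (-0.022) with normexp. Nr1d1 is one of the genes behind those components, so its sign there is no separate result. The score difference between labels was -0.18 with normexp, -0.14 in the second series and -0.061 to 0.18 without 1 liver. The interaction and the label comparison gave 0 calls under every alternative run. Dim signals, such as Ifnb1, limit what the arrays can show.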
